A study of Mus musculus with 7 samples.

Results

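The Sox genes encode transcription factors with a high mobility group (HMG) box that binds short DNA sites, and 10 of them (Sox2, Sox3, Sox4, Sox5, Sox6, Sox9, Sox11, Sox15, Sox17 and Sox21) were examined for binding of the octamer factors Oct1 (gene Pou2f1) and Oct4 (gene Pou5f1). They were chosen by name from the family and are 10 of 21887 protein-coding gene symbols in the annotation, where all 10 were found. Binding had been mapped by chromatin immunoprecipitation and sequencing (ChIP-seq) in mouse embryonic stem cells (ESCs) of the genotype the labels call parental. Undifferentiated cells gave an Oct1 and an Oct4 library, and cells on the way to mesoderm gave an Oct1 library at day 3 and another at day 6, each with 1 deposited peak list. The Oct1 antibody was the same at all 3 stages. Differentiation ran for 2 days with the growth factor Bmp4 and was set to go on for 4 days with Rspo3, a secreted enhancer of Wnt signalling, and the BMP receptor inhibitor LDN-193189. The strain of the cells is not given in the sources used here, and peak lists hold no expression values, so the identity of the cells was not checked against marker genes. The 3 input libraries and other arms of the series were not analysed here. With no replicate in any group there is no error between cultures, no test was made, and a difference between lists may lie between libraries as well as between conditions.

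SOX proteins bind DNA mostly together with partner factors, and POU factors are their best known partners. In ESCs Sox2 and Oct4 occupy adjacent half-sites and maintain each other's genes and the pluripotent state. During development the family is divided among lineages. Sox2, Sox3 and Sox21 act in neural progenitors, Sox4 and Sox11 in differentiating neurons and many embryonic tissues, Sox5, Sox6 and Sox9 in cartilage and glia, and Sox17 in endoderm and endothelium. In mesodermal differentiation the pluripotency and neural programmes are normally shut down, while Sox9 is known from somite-derived cartilage.

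At day 3 an Oct1 peak covered the start of Sox2, Sox11 and Sox21, 3 of the 7 Sox genes with an annotated promoter, and at day 6 one covered the start of Sox2 and Sox11. The ESC lists had no peak on any of the 7 starts. The promoter window used for this ran from 250 bases before to 50 bases after the start, and the 7 genes were Sox2, Sox4, Sox5, Sox6, Sox11, Sox15 and Sox21 (the window of Sox5 belongs to a start inside the gene). Over all 17492 protein-coding genes with such a window, 5.81% had an ESC Oct1 peak there and 4.18% an ESC Oct4 peak, while 14.1% had one at day 3 and 31.0% at day 6. Against that background, 3 of 7 at day 3 was above the share of all genes, while 2 of 7 at day 6 was close to it. The 0 of 7 in each ESC list was also close to the low shares of all genes there, so it shows nothing particular to the Sox genes. With only the 50% of peaks that score highest in each list, 2 of 7 starts had a day 3 peak (Sox2 and Sox11, against 9.25% of all genes) and 1 of 7 a day 6 peak (Sox2, 18.3%). The 250 bases upstream of the 3 starts with a peak are shown so that the covered stretch can be read, followed by the same stretch of Sox12, a family member outside the 10 that was picked because it holds a full octamer there. Sox12 had an Oct1 peak over its window at day 6, as did Sox1 and Sox8, whose sequences are not shown. They come from RefSeq (GRCm38.p6), run 5′ to 3′ towards the start, and carry in capitals the octamer ATGCAAAT or the same motif without its last base, ATGCAAA.
Sox2 (chr3:34649745-34649994, plus strand): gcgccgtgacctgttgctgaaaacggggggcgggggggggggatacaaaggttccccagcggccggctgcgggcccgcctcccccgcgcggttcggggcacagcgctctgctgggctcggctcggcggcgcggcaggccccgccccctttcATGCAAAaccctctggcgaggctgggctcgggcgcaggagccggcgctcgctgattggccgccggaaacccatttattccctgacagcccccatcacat
Sox11 (chr12:27342719-27342968, minus strand): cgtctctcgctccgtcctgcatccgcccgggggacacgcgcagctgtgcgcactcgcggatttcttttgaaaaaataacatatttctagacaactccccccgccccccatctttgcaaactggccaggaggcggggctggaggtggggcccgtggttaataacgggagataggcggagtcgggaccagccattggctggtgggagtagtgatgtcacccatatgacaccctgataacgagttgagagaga
Sox21 (chr14:118237031-118237280, minus strand): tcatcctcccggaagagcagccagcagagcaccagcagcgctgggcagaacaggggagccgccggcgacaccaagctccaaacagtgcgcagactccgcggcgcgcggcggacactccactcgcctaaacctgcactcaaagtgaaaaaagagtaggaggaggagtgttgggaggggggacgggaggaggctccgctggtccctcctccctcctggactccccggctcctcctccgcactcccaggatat
Sox12 (chr2:152398047-152398296, minus strand): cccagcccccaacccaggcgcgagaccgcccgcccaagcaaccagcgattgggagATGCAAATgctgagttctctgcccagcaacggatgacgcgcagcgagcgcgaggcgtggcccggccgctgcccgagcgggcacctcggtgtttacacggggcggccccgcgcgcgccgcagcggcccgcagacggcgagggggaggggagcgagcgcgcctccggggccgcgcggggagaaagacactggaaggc

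Neither the full octamer nor ATGCNAAT matched any of the 12 promoter windows of the 7 Sox genes on either strand. The octamer was present in 1.74% of all 32851 promoter windows of 300 bases, and ATGCNAAT, which includes it, in 3.15%. The shortened ATGCAAA, searched only after the sequences had been read, matched in Sox2, 99 to 93 bases before the start, and in 4.63% of all windows. Of the other 10 family members, Sox12 held the octamer 195 to 188 bases before its start, and Sox1 held it shortly after its start. A Sox site, ACAATNG, matched in 1 window each of Sox5 and Sox6 (8.09% of all windows), and the palindromic POU site known as MORE, which is longer than an octamer and was present in 3 of all windows, matched none of them. The composite of a Sox site and an octamer was searched only in a strict form that contains the full octamer, with no mismatch allowed. This form occurred in 0 of all windows. So long a pattern is rarely met, and a composite that differs from it by a letter is missed. The search therefore cannot tell whether promoter windows hold composites in other forms. Across all promoter windows with an octamer, 17.0% had an ESC Oct1 peak against 4.77% of all windows, 20.2% had a day 3 peak against 9.78%, and 17.7% had a day 6 peak against 21.4%. The Oct1 peaks on the starts of Sox2, Sox11 and Sox21 thus covered windows without a full octamer, which says only that these letters are not in those 300 bases.

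With a peak counted when it touched the gene or lay up to 10 kb from it, 2 of the 10 Sox genes had an ESC Oct1 peak (Sox15 and Sox21), against 35.2% of all protein-coding genes. An ESC Oct4 peak was listed at 3 of them (Sox5, Sox9 and Sox15), against 40.2%. Day 3 Oct1 peaks were listed at 6 (Sox2, Sox5, Sox9, Sox11, Sox15 and Sox21), against 24.6%, and day 6 Oct1 peaks at 5 (Sox2, Sox4, Sox9, Sox11 and Sox15), against 41.5%. The day 3 count was above the share of all genes. The counts of the other 3 lists lay within 2 genes of what the shares give for 10 genes, and no departure from them is read from so few genes. With only the 50% of peaks that score highest in each list, 3 genes had a day 3 peak (Sox2, Sox11 and Sox15), against 15% of all genes, and 2 a day 6 peak (Sox2 and Sox15), against 25%. Of the 10, 8 are under 20 kb long, and for genes of that length the shares were 28.3%, 33.7%, 20.7% and 36.1% in the same order of lists. Within 50 kb, 4 of the 10 had an ESC Oct1 peak (58.7% of all genes) and 5 an ESC Oct4 peak (62.5%), while 6 had one at day 3 (41.5%) and 5 at day 6 (57.9%). Sox3, Sox6 and Sox17 had no peak within 10 kb in any list, as was the case for 7987 genes besides each of them (36.5%). Sox3 had none within 50 kb.

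**Figure D1:**
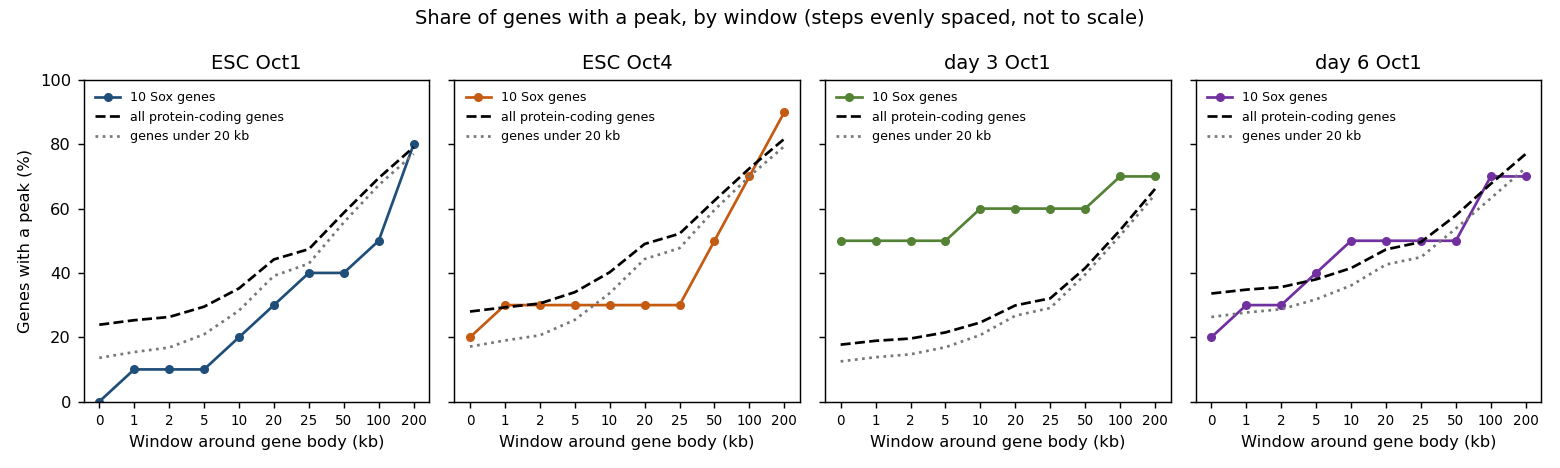
Share of genes with at least 1 peak (y axis, %) against the window allowed around the gene body (x axis, kb, evenly spaced steps), for the 10 Sox genes (points), all protein-coding genes (dashed) and those under 20 kb (dotted), 1 panel per list. The Sox genes lie below the other lines in the ESC Oct1 panel up to 100 kb. At day 3 they lie above them in every window, from 50% of Sox genes against 17.7% of all genes in the gene body itself. Some of these gaps are small, with 40% against 42.9% of genes under 20 kb for ESC Oct1 at 25 kb. At 200 kb the day 3 shares were 70% against 66.1% of all genes.

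Peaks inside the gene body were listed at 0 of the 10 Sox genes for ESC Oct1 (23.9% of all protein-coding genes), at 2 for ESC Oct4 (28.0%), at 5 for day 3 (17.7%) and at 2 for day 6 (33.6%). Here too the day 3 count was above the share of all genes, and the day 6 count leaves out a peak that ends 10 bp from Sox9. The day 3 count includes peaks of low score at Sox5, Sox9 and Sox21. With only the 50% of peaks that score highest in each list it fell to 2 (Sox2 and Sox11, against 10.5% of all genes), with 1 gene for ESC Oct4 (Sox5, 18.2%), 1 at day 6 (Sox2, 19.2%) and 0 for ESC Oct1 (15.8%). Of the 12 ESC Oct1 peaks counted within 50 kb of the Sox genes, 0 touched a gene body, 3 lay within 10 kb and 9 lay farther out. Of 16 ESC Oct4 peaks, 4 touched a gene body, 3 of them inside Sox5. Of 11 day 3 peaks, 5 touched a gene body, and of 12 day 6 peaks, 2 did. Of these 51 peaks 25 were counted for Sox15, none of them inside it. Each peak carries a whole-number score from the authors, with no unit, which is used here only to place a peak within its own list. A peak's percentile is the share of the other peaks of its list with a lower score. The median percentile of the peaks within 50 kb was 65.3 for ESC Oct1, 61.1 for ESC Oct4, 50.6 at day 3 and 64.8 at day 6. Without the peaks around Sox15 the medians were 66.4, 37.1, 46.8 and 31.4 in the same order, so that the ESC Oct4 and day 6 medians rest on that region. The lowest and highest percentiles were 6.90 and 99.8 for ESC Oct1, 0.178 and 93.8 for ESC Oct4, 0.206 and 99.3 at day 3, and 5.26 and 99.4 at day 6.

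**Figure D2:**
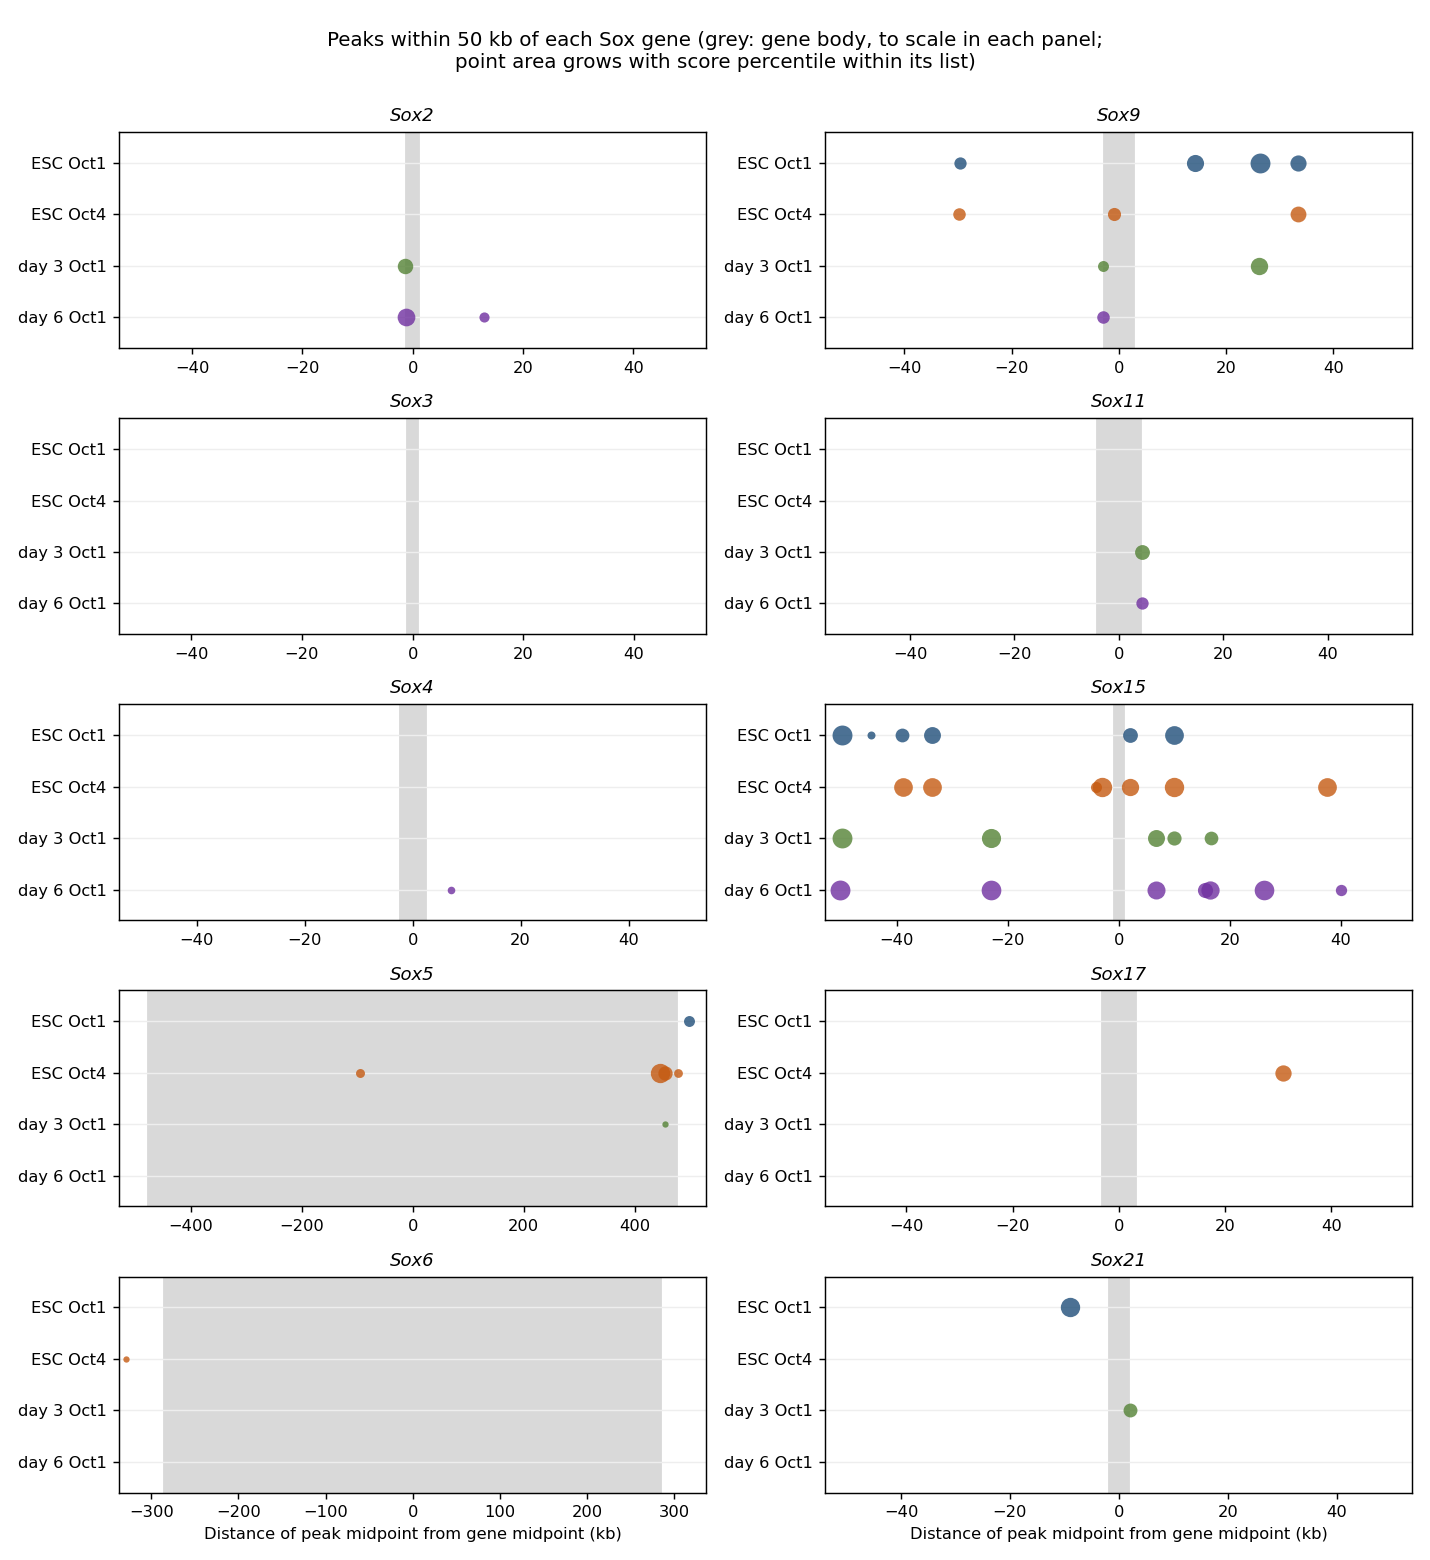
Peaks within 50 kb of each of the 10 Sox genes by list (rows) and by distance of the peak's midpoint from the gene's midpoint (x axis, kb, in order of increasing chromosome position). The gene body is grey and to scale in each panel, and the area of a point grows with its score percentile. Peaks of day 3 and day 6 sit at one edge of Sox2, Sox9 and Sox11, an edge at which the ESC rows have no point, and Sox15 has 25 of the 51 points.

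Sox2 (gene ID 20674, chr3:34649995-34652461), the partner of Oct4 in ESCs and a factor of neural progenitors, had no ESC peak of either factor within 50 kb. The nearest ESC Oct1 peak was 94.8 kb away and the nearest ESC Oct4 peak 164 kb away. At day 3 an Oct1 peak of 540 bp (chr3:34649621-34650160) covered the start, with its midpoint 104 bases before it. Its score was 221, rank 2154 of 4867 peaks and percentile 55.7. At day 6 a peak of 850 bp (chr3:34649581-34650430) covered the same start, with score 957, rank 1812 of 7758 and percentile 76.6. A further day 6 peak, of percentile 17.8, lay 11.4 kb beyond the end of Sox2, just outside the 10 kb window. All 3 peaks also lie within Sox2ot, a long noncoding RNA gene that spans Sox2.

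Sox3 (gene ID 20675, chrX:60891366-60893430), the closest relative of Sox2 and a factor of neural progenitors, had no peak near it. Its nearest peaks were 829 kb away for ESC Oct1, 860 kb for ESC Oct4, 4160 kb at day 3 and 486 kb at day 6. Few peaks lay on chromosome X at all, which holds 4.41% of protein-coding genes but 0.497% of ESC Oct1, 0.447% of ESC Oct4, 1.54% of day 3 and 2.11% of day 6 peaks.

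Sox21 (gene ID 223227, chr14:118233233-118237030), a neural factor that acts mostly as a repressor, had its Oct1 peaks at different positions in ESCs and at day 3. The ESC peak (chr14:118225861-118226380) lay 6.85 kb beyond the end of the gene, with score 413, rank 1149 of 17709 and percentile 93.5, and overlapped the noncoding RNA gene Gm32045. It overlapped no peak of the other lists. The day 3 peak (chr14:118236821-118237370) covered the start, with score 165, rank 2767 and percentile 43.0. Neither the ESC Oct4 list nor the day 6 list had a peak within 50 kb, the nearest lying 80.7 kb and 95.9 kb away.

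Sox11 (gene ID 20666, chr12:27334268-27342718), a factor of newly formed neurons and of mesenchyme, resembled Sox2. No ESC peak lay within 50 kb, the nearest being 193 kb away for Oct1 and 168 kb for Oct4. At day 3 a peak of 580 bp (chr12:27342611-27343190) covered the start, with score 198, rank 2402 and percentile 50.6. At day 6 a peak of 1110 bp (chr12:27342321-27343430) covered it, with score 316, rank 5315 and percentile 31.4. Sox4 (gene ID 20677, chr13:28948919-28953699), its close relative, had a single peak, at day 6, of percentile 5.26, located 4.38 kb upstream of the gene at rank 7345 of 7758. Both genes belong to the same subgroup of the family, yet only Sox11 had a peak on its start in these lists.

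**Figure D3:**
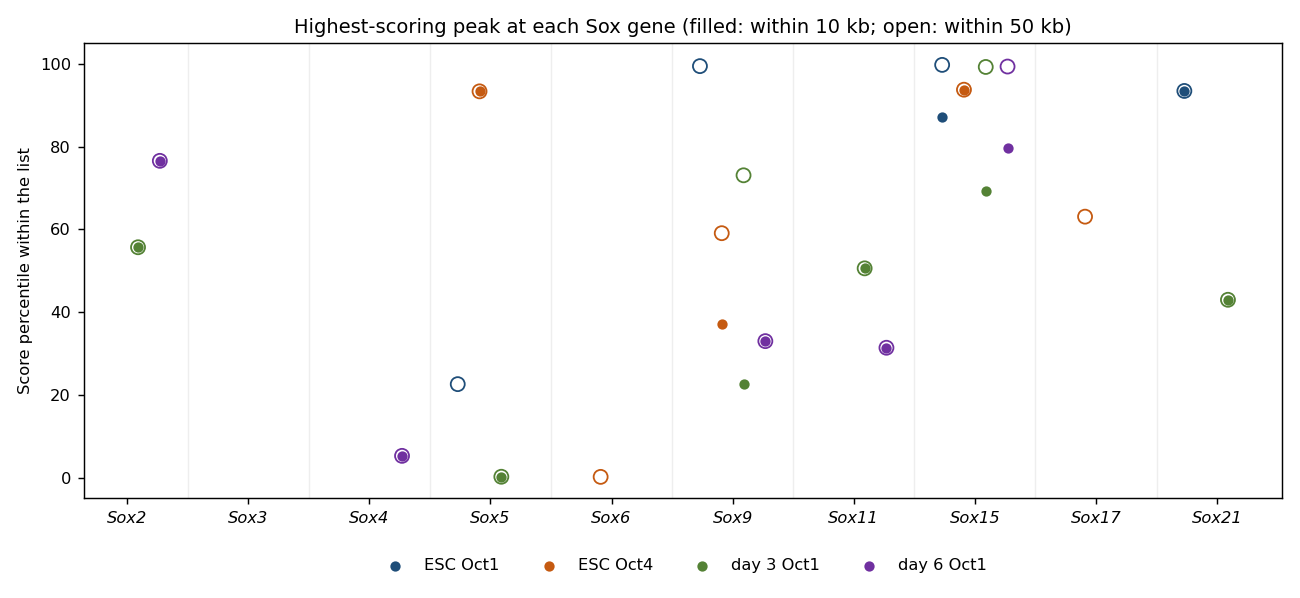
Score percentile within its own list (y axis) of the highest-scoring peak at each of the 10 Sox genes (x axis), within 10 kb (filled) and within 50 kb (open), coloured by list. Sox3 has no point, the points of Sox4 and Sox6 lie near 0, and the highest percentiles within 10 kb are those of the ESC Oct4 peaks at Sox15 and Sox5 and the ESC Oct1 peak at Sox21.

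Sox9 (gene ID 20682, chr11:112782210-112787757), required for cartilage and testis formation, had both kinds of site. In ESCs 4 Oct1 peaks lay around it at distances of 11.1 to 30.4 kb and none nearer. One of them, 1310 bp wide and 22.9 kb from the gene (chr11:112810661-112811970), had score 3923 and ranked 92 of 17709, percentile 99.5. This site overlapped a day 3 Oct1 peak of 1320 bp (score 334, rank 1309, percentile 73.1) and no ESC Oct4 or day 6 peak. The ESC Oct1 peaks at 26.7 kb and 30.4 kb each overlapped an ESC Oct4 peak and no later Oct1 peak. The fourth ESC Oct1 peak, of percentile 70.8, lay 11.1 kb from the gene over the promoter window of the noncoding RNA gene Gm11681. At one end of Sox9 itself an Oct1 peak was listed at day 3 (chr11:112781721-112782290, score 98, percentile 22.7) and another at day 6 (chr11:112781681-112782200, score 332, percentile 33.0), overlapping each other. The day 6 peak stops 10 bp short of the annotated gene. An ESC Oct4 peak of percentile 37.1 lay inside the gene, away from those peaks. Sox9 therefore had distal Oct1 peaks in ESCs, a distal and a gene-end peak at day 3, and the gene-end peak alone at day 6.

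Sox5 and Sox6, a pair of related genes that help Sox9 in cartilage, span 954 kb and 570 kb, so that much of their windows is gene body. Even so, Sox6 (gene ID 20679, chr7:115470872-116040776) had no peak inside it in any list. Of protein-coding genes of 200 kb and over, 51.3% had an ESC Oct1 peak under the 10 kb rule and 56.2% an ESC Oct4 peak, with 27.8% at day 3 and 38.9% at day 6. The only peak within 50 kb of Sox6 was an ESC Oct4 peak 43.9 kb away, rank 22758 of 22817. Sox5 (gene ID 20678, chr6:143828425-144782287) had 4 ESC Oct4 peaks, 3 inside the gene and 1 lying 404 bp beyond its upper end. The strongest (chr6:144750421-144751590) was 1170 bp wide, with score 307, rank 1434 and percentile 93.4, while the other 3 were at percentiles of 10.7 to 46.1. The one at percentile 46.1 overlapped the noncoding RNA gene Sox5os4 and the single day 3 Oct1 peak of Sox5, which ranked 4855 of 4867. ESC Oct1 had no peak inside Sox5, and its nearest lay 20.1 kb away at percentile 22.6.

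Sox17 (gene ID 20671, chr1:4490928-4497426), a regulator of endoderm, had an ESC Oct4 peak 27.3 kb away (score 163, percentile 63.1) and no other within 50 kb. Its nearest Oct1 peaks were 305 kb away in ESCs, 2590 kb at day 3 and 360 kb at day 6. Like Sox3 and Sox6, it was therefore without Oct1 peaks within 50 kb at every stage.

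Sox15 (gene ID 20670, chr11:69655037-69656727), which is expressed in ESCs and in muscle precursors, had peaks in all 4 lists, but in a crowded region with 11 other protein-coding genes within 50 kb. In total 25 peaks were counted for it, and for 0 of them was Sox15 the nearest protein-coding gene. By contrast, the other members had no more than 1 such neighbour within 50 kb and were the nearest gene for 26 of their 26 peaks. The closest to Sox15 were an ESC Oct1 peak (percentile 50.1) and an overlapping ESC Oct4 peak (percentile 72.6) within Mpdu1, 844 and 864 bp beyond the end of Sox15. ESC Oct4 peaks inside Fxr2 (percentile 93.8) and Cd68 (percentile 93.8) lay 1.95 kb and 8.76 kb away, the latter overlapping an ESC Oct1 and a day 3 Oct1 peak. At day 3 and day 6 a peak over the promoter window of Mpdu1 lay 5.57 kb and 5.60 kb away (percentiles 69.4 and 79.7). Within 50 kb, the highest Oct1 scores belonged to a site overlapping Atp1b2, 48.7 kb from Sox15, which ranked 33 of 17709 in ESCs, 33 of 4867 at day 3 and 49 of 7758 at day 6. Beyond that window, 101 to 102 kb from Sox15, a site in Polr2a ranked 2, 2 and 7 in the same lists. The remaining peaks within 50 kb lay at or in Shbg, Sat2, Fxr2, Eif4a1, Senp3, Tnfsf12 and Tnfsfm13. When a peak was counted only for its nearest protein-coding gene, Sox15 dropped out of all 4 lists, leaving 1 Sox gene with an ESC Oct1 peak within 10 kb (28.0% of all protein-coding genes under the same rule), 2 with ESC Oct4 (32.2%), 5 at day 3 (17.7%) and 4 at day 6 (31.6%).

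Peaks near the Sox genes were then compared between lists, with an overlap of at least 1 bp counted as a shared site. Of the 12 ESC Oct1 peaks within 50 kb of Sox genes, 6 overlapped an ESC Oct4 peak (50%, against 59.1% of all ESC Oct1 peaks). Day 3 peaks overlapped 3 of the 12 (25%, against 8.88%) and day 6 peaks 1 (8.33%, against 6.66%). Seen from the day 3 list, 3 of 11 peaks overlapped an ESC Oct1 peak (27.3%, against 32.3% of all day 3 peaks). Of the 16 ESC Oct4 peaks, 6 overlapped an ESC Oct1 peak (37.5%, against 46.0% of all). Of the 11 day 3 peaks, 7 overlapped a day 6 peak (63.6%, against 58.5%), which is 58.3% of the 12 day 6 peaks (36.6% of all). Of the 12 day 6 peaks, 0 overlapped an ESC Oct4 peak, against 12.9% of all day 6 peaks, a difference that so few peaks cannot show. Without the surroundings of Sox15, 2 of 6 ESC Oct1 peaks overlapped an ESC Oct4 peak, both at Sox9, and 3 of 6 day 3 peaks overlapped a day 6 peak, namely those on Sox2, Sox9 and Sox11. Among ESC Oct1 peaks, 1 of 6 then overlapped a day 3 peak, the wide one near Sox9. These are small counts, and the shares are given as a description.

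Gene ends can be examined for all 10 genes, including Sox3, Sox9 and Sox17. Within 1 kb of either end, day 3 peaks were listed at 4 of 10 Sox genes (Sox2, Sox9, Sox11 and Sox21), against 14.6% of all protein-coding genes, and day 6 peaks at 3 of 10 (Sox2, Sox9 and Sox11), against 30.5%. ESC Oct1 had such a peak at Sox15 only (9.85% of all genes) and ESC Oct4 at Sox5 and Sox15 (11.1%). With only the 50% of peaks that score highest in each list, the day 3 count fell to 2 (Sox2 and Sox11, against 9.49% of all genes), the day 6 count to 1 (Sox2, 18.0%) and the ESC Oct4 count to 1 (Sox15, 6.16%), while ESC Oct1 still had Sox15 (6.93%). This reading was chosen after the peaks had been seen.

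The 10 other genes of the family were Sox1, Sox7, Sox8, Sox10, Sox12, Sox13, Sox14, Sox18, Sox30 and Sry. Within 10 kb, 3 of them had an ESC Oct1 peak (Sox13, Sox18 and Sox30), and 3 an ESC Oct4 peak (Sox10, Sox13 and Sox30), while 4 had one at day 3 (Sox1, Sox8, Sox12 and Sox13) and 4 at day 6 (Sox1, Sox8, Sox12 and Sox18). The shares of all protein-coding genes were 35.2%, 40.2%, 24.6% and 41.5% in the same order, near the 3, 3, 4 and 4 of 10 counted here. Within 50 kb, 8 of these 10 had an ESC Oct1 peak (58.7% of all genes) and 8 an ESC Oct4 peak (62.5%). At day 3 the count was 5 (41.5%) and at day 6 it was 7 (57.9%). The promoter windows of 7 of them were annotated, and Oct1 peaks covered those of Sox1 and Sox8 at day 3 and of Sox1, Sox8 and Sox12 at day 6, with 0 in either ESC list. Over all genes with a promoter window the shares were 14.1% at day 3, 31.0% at day 6 and 5.81% and 4.18% in the ESC Oct1 and Oct4 lists. Sox1, a neural relative of Sox2 and Sox3, had its peak at percentile 80.7 at day 3 and 90.9 at day 6. Sox12, the relative of Sox4 and Sox11, had 3 day 3 peaks and 2 day 6 peaks, with highest percentiles of 91.3 and 73.3. Sox13, related to Sox5 and Sox6, had 2 ESC Oct1 and 7 ESC Oct4 peaks. Sox14 and Sry had no peak within 50 kb in any list.

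Genes with a textbook Oct-Sox element were counted in the same way. Of Pou5f1, Nanog, Fgf4, Utf1, Fbxo15 and Lefty1, 5 of 6 had an ESC Oct1 peak within 10 kb (35.2% of all protein-coding genes) and 4 of 6 an ESC Oct4 peak (40.2%). Oct1 peaks were listed at 2 of 6 at day 3 (24.6%) and 2 of 6 at day 6 (41.5%), both near the share of all genes. Fgf4, a growth factor gene with a known enhancer bound by Oct4 and Sox2, had 4 ESC Oct1 and 3 ESC Oct4 peaks, with highest percentiles of 93.0 and 91.9. Lefty1, an inhibitor of Nodal, had an ESC Oct4 peak of rank 56 (percentile 99.8) and an ESC Oct1 peak of percentile 34.0. Utf1, a chromatin factor of ESCs, had 1 peak in each ESC list and 1 at day 3. Pou5f1 had 3 peaks in each ESC list, 1 at day 3 and 1 at day 6, and Nanog an ESC Oct1 peak of percentile 80.8 alone. Within 50 kb, Nanog also had 3 ESC Oct4 peaks, of percentile up to 86.0, and Lefty1 an ESC Oct1 peak of percentile 96.2. Fbxo15 had no peak within 50 kb in any list. Sox2, which has such an element too, was without an ESC peak within 50 kb. The threshold of the lists is unknown, so absence from a list does not show absence of binding.

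Genes with the same presence pattern over the 4 lists within 10 kb were frequent for some Sox genes and rare for others. The pattern of Sox2 and Sox11, with peaks at day 3 and day 6 only, was held by 1528 genes in addition to each of them (6.98%). That of Sox21 (ESC Oct1 and day 3) was held by 103 further genes (0.471%) and that of Sox5 (ESC Oct4 and day 3) by 66 (0.302%). Sox9 shared its pattern with 514 genes (2.35%) and Sox15 with 2009 (9.18%). By the mean absolute difference in highest score percentile over the lists with a peak, the genes most like Sox2 were H3f3a (0.308) and Ssbp2 (0.426), and those most like Sox11 were Gpc4 (0.986) and Eed (1.49). For Sox9 they were Alx1 and Gm34298 (3.79 each), for Sox21 they were 5430403G16Rik (0.806) and Scd1 (2.73), for Sox5 they were Bid (3.37) and Rims2 (4.48), and for Sox15 they were Shb (0.371) and Cd68 (0.604), which shares peaks with it.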

How the data were processed

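ChIP-seq peak lists of 4 libraries (1 per group) were used. Chromatin was crosslinked with 1% formaldehyde and sequenced as paired reads of 50 bp, per the labels' protocols, at an intended 100 M pairs. Per the submitters' processing notes, Novoalign 3.8.2 and build mm10 were used. The peak caller, its threshold and the control are not given in the sources used here. The deposited lists give 1 score per peak from the authors, and the depth behind it is unknown. Peaks numbered 17709 and 22817 in ESCs (Oct1 and Oct4), 4867 at day 3 and 7758 at day 6. Genes, starts and promoter sequences came from RefSeq tables of GRCm38.p6, the assembly of mm10. Starts were read as 0-based, and coordinates are printed 1-based. For 7 of the 10 genes the promoter table had an entry. Whether peaks inside genes are exonic or intronic was not analysed here.

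Peaks were counted in the gene body and within 10 or 50 kb, in Python 3.11.15 (numpy 2.4.6, pandas 2.3.3), tested on simulated data and checked with bedtools 2.31.1. Figures used matplotlib 3.10.9. Alternatives changed the window, the midpoint rule, the scores kept, the gene assignment and the overlap. Named were all 10 genes, all genes of both comparison lists, genes nearer to a peak, and for members with peaks in at least 2 lists the 2 genes most like them. Of the noncoding genes under a peak within 50 kb, 4 are named too (Sox2ot, Sox5os4, Gm11681 and Gm32045), chosen after the peaks were seen. So is 1700003G18Rik, under peaks beyond 50 kb from Sox6. The members and lists were chosen with earlier results of these data known.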

Additional observations from a re-analysis of the deposited data

How the results depend on the processing

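With 1 library per group and peaks alone, depth and threshold were unknown, and their part in the counts was not tested. No paired analysis was possible because the groups share no replicates. In all, 104 alternative values were computed for 32 counts, and 80 stayed within 1.5 times of the value reported. Restricting each list to the top 50% of scores left 3 of 10 Sox genes with a day 3 peak within 10 kb and 2 with a day 6 peak (2 within 50 kb). It left 0 overlaps between ESC Oct4 and day 3 peaks in either direction, 4 between day 3 and day 6 peaks in either direction, and gene-end peaks at 1 gene for ESC Oct4, 2 at day 3 and 1 at day 6. Gene-body peaks remained at 1 gene for ESC Oct4, 2 at day 3 and 1 at day 6, and a promoter peak at day 6 at 1 gene. With every list shortened to 4867 peaks, 2 genes had a day 6 peak within 10 kb and 2 within 50 kb, and 2 had an ESC Oct4 peak within 50 kb. The shares of all genes in the shortened lists were not computed. These falls can therefore not be told apart from the general effect of shorter lists. A window of 5 kb gave 1 gene for ESC Oct1 (29.5% of all protein-coding genes), and one of 25 kb gave 3 for ESC Oct4 (52.2%). Assigning peaks to the nearest gene gave 1 for ESC Oct1 within 10 kb. Midpoints within 200 bp left 0 overlaps between ESC Oct1 and day 6 peaks in either direction. Requiring the end of the gene inside the peak left 0 genes in each ESC list. The gene-end counts and their alternatives, and those of gene-body and promoter counts, were chosen after the data were seen. Requiring that 50% of each peak overlap, a midpoint in the window, and windows of 20 kb and 100 kb moved none of the counts they were tried on beyond 1.5 times. This holds for numbers of genes or overlaps. Of 240 alternative peak counts for single Sox genes within 10 kb, 27 moved beyond that. With a window of 20 kb, Sox9 had 1 ESC Oct1 peak in place of 0, and at day 6 Sox2 had 2 in place of 1 and Sox15 had 3 in place of 1.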

Other observations

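Beyond 50 kb, Sox2 had 3 ESC Oct1 peaks on its downstream side, at 94.8 kb, 104 kb and 107 kb from the gene (ranks 15364, 2607 and 5115 of 17709), and no Oct1 peak at day 3 or day 6 between 50 and 200 kb. The ESC Oct4 list had no peak on that side up to 200 kb and 1 on the other side, at 164 kb, rank 20610 of 22817. As background, Sox2 in ESCs depends on a distant downstream enhancer cluster called the Sox2 control region, and whether these peaks lie in it was not tested. Sox11 had an ESC Oct1 peak 193 kb away (rank 2712), which overlapped an ESC Oct4 peak of rank 428. Between 50 and 200 kb, Sox9 had 4 ESC Oct1 and 5 ESC Oct4 peaks and no later Oct1 peak. A site 67.3 kb from Sox21, with Gm9376 as its nearest protein-coding gene, had an Oct1 peak in ESCs (rank 11711) and at day 3 (rank 4221 of 4867). The nearest day 3 and day 6 Oct1 peaks to Sox6, 52.3 kb away, lay over the promoter windows of 1110004F10Rik and 1700003G18Rik, and 1110004F10Rik was their nearest protein-coding gene. At 200 kb, 8 of the 10 Sox genes had an ESC Oct1 peak (79.1% of all protein-coding genes) and 9 an ESC Oct4 peak (81.7%), while 7 had one at day 3 (66.1%) and 7 at day 6 (77.0%). These values were looked at after the data were seen.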
